A study of Mus musculus with 6 samples.

Results

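The regions described here are the strongest peaks in 2 chromatin immunoprecipitation sequencing (ChIP-seq) libraries for histone H3 phosphorylated at serine 10 (H3S10p) in mouse embryonic stem cells. They were chosen by their score, the number that the peak caller MACS gave each peak: every peak on chromosomes 1 to 19 with a score of 120 or more in its own library was taken, and peaks of both libraries within 10 kb of each other were joined into loci. The rule gave 128 of 10935 autosomal peaks in library 1 and 171 of 12123 in library 2, and these 299 peaks formed 250 loci. The remaining 10807 and 11952 autosomal peaks, all with scores under 120, are called the other peaks. The cells were of strain 129P2/Ola. For each library, cells were held with aphidicolin, which blocks DNA replication, for 20 hours and then released for 3 hours. About 1000000 cells per sample were cross-linked, and the antibody was ab14955 from abcam. The series also holds 2 untreated RNA libraries and 2 after 48 hours of ZM-447439, an inhibitor of Aurora kinases, which were not used here. The labels name no second ChIP condition, and nothing in them says whether the libraries came from separate cultures, so agreement between them may be technical.

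Aurora B, the kinase of the chromosomal passenger complex, phosphorylates histone H3 at serine 10 as cells approach division. In mouse cells the mark is known to appear first over pericentric heterochromatin in G2 and to spread along the chromosome arms in mitosis. Pericentric heterochromatin of the mouse consists of long arrays of satellite repeats that are mostly absent from the assembled genome, while some related copies lie in assembled sequence. When a genome holds few of the copies that a cell holds, sequencing reads from all of them can be placed on those few positions. The loci had been put forward as repeat-like. No sequence or repeat annotation on mm9, the build of these files, was used here, so that name was not checked. The loci are therefore described by position, and no sequence is printed. No input library was analysed here, and whether any score reflects more H3S10p was not tested.

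Scores of the chosen peaks ran from 120 to 2299 in library 1 (median 133) and from 120 to 2322 in library 2 (median 134). Peaks at or over the limit made up 1.17% of library 1 and 1.41% of library 2, which only restates the rule. Most loci were small: 219 of 250 (87.6%, Wilson 95% interval 82.9 to 91.1%) consisted of a single chosen peak. Loci with a chosen peak in each library numbered 31 (12.4%, 8.87 to 17.1%). In 29 of these the chosen peaks overlapped between the libraries. A further 81 loci (32.4%, 26.9 to 38.4%) had a chosen peak in a single library and a weaker overlapping peak in the other. In 138 loci (55.2%, 49.0 to 61.2%) the chosen peak overlapped no peak of the other library. Counted as peaks, 52.3% of chosen peaks in library 1 and 53.2% in library 2 overlapped a peak of the other library. Over all autosomal peaks the shares were lower, at 35.3% and 31.8%, so lack of overlap was not particular to chosen peaks. The intervals cover counting error only. A high score in a single library was thus the common case, and a high score at the same place in both libraries was the smaller group.

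**Figure D1:**
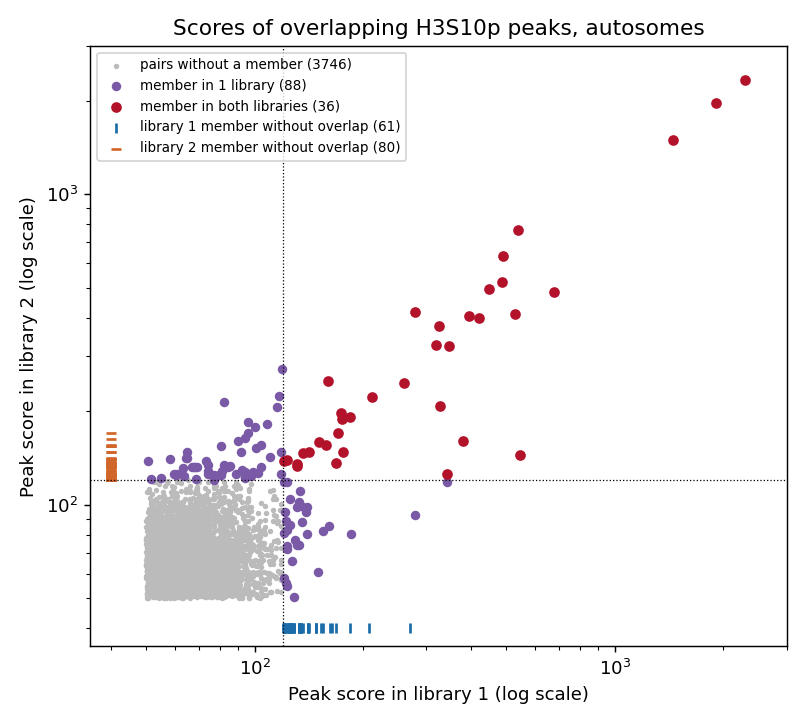
Each point is a pair of overlapping peaks, with the score in library 1 on the x axis and in library 2 on the y axis, both on log scales; dotted lines mark the score limit of 120, and ticks along the edges are chosen peaks that overlapped no peak of the other library (61 in library 1 and 80 in library 2). The 36 pairs chosen in both libraries extend along the diagonal to 2299 and 2322, while the 88 pairs chosen in a single library have a score under 120 in the other.

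The highest scores belonged to a short list of loci found in both libraries. A peak on chromosome 9 from 35112691 to 35113286 scored 2299 in library 1 and 2322 in library 2, and its borders differed by 1 bp at each end. The next locus lay on chromosome 2 from 98502278 to 98507600 and held 3 chosen peaks in each library. Its rightmost peak, 98506287 to 98507600, scored 1909 and 1961 and had identical borders in the libraries. Its leftmost peak scored 1454 and 1493, and the middle peak, 657 bp wide in library 1 and 671 bp in library 2, scored 131 and 134. Scores within this locus therefore differed far more between neighbouring peaks than between the libraries, where the ratio of library 2 to library 1 was 1.02 to 1.03.

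Scores fell steeply after these loci. On chromosome 6, the peak from 103598936 to 103599396 scored 539 in library 1 and 765 in library 2. On chromosome 4, the locus from 70038751 to 70039398 scored 679 and 486, where the peak was 349 bp wide in the first library and 648 bp in the second. These pairs changed order between the libraries: chromosome 4 was the higher in library 1 and chromosome 6 in library 2.

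Several of the strongest loci lay in the first 0.2 Mb of assembled sequence, which on the mm9 autosomes starts at 3 Mb, beyond the unassembled centromeric end. Chromosome 11 carried 3 loci there, the strongest from 3092901 to 3093909 with scores of 488 and 633. On chromosome 12, the peak from 3109761 to 3110231 scored 448 and 494. On chromosome 5, the peak from 3181556 to 3181731 scored 346 and 323 and was only 172 and 176 bp wide, so a high score did not need a wide peak. The locus at 3000333 to 3000633 on chromosome 11 was weaker, at 151 and 160, and began 0.333 kb after that point.

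The other high-scoring loci lay within chromosome arms. Chromosome 12 from 75904787 to 75905601 scored 394 in library 1 and 407 in library 2. Chromosome 9 from 24346345 to 24346716 scored 279 and 417. Chromosome 11 from 108872854 to 108873522 stood apart, since it scored 545 in library 1 and 144 in library 2 although the peaks were of like width (583 and 561 bp). That 3.78-fold ratio was the largest among the loci with a peak in both libraries.

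The widest locus spanned 37.1 kb at the assembled start of chromosome 9, from 2999893 to 3037022, so that its first peak was listed from just before the 3 Mb point. Each library called 10 peaks in it, and every peak overlapped a peak of the other library. Of the 10, 6 reached the limit in library 1 and 8 in library 2. The first peak scored 485 in library 1 and 522 in library 2, and the last scored 528 and 412. Between them, a peak 15.3 kb into the locus scored 325 and 377. The weakest peak, 2.10 kb into the locus, scored 50.1 and 70.6, so strong and weak calls lay within a few kb of each other in both libraries. Library 2 had the higher score in 7 of 10 pairs. The most unequal pair was a peak of 2740 bp with identical borders in both libraries that scored 119 in library 1 and 274 in library 2, which left it just under the limit in library 1. Border distances in the 10 pairs ran from 0 to 224.5 bp with a median of 2.75 bp. Called peaks covered 36.9% of the span in library 1 and 36.4% in library 2.

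**Figure D2:**
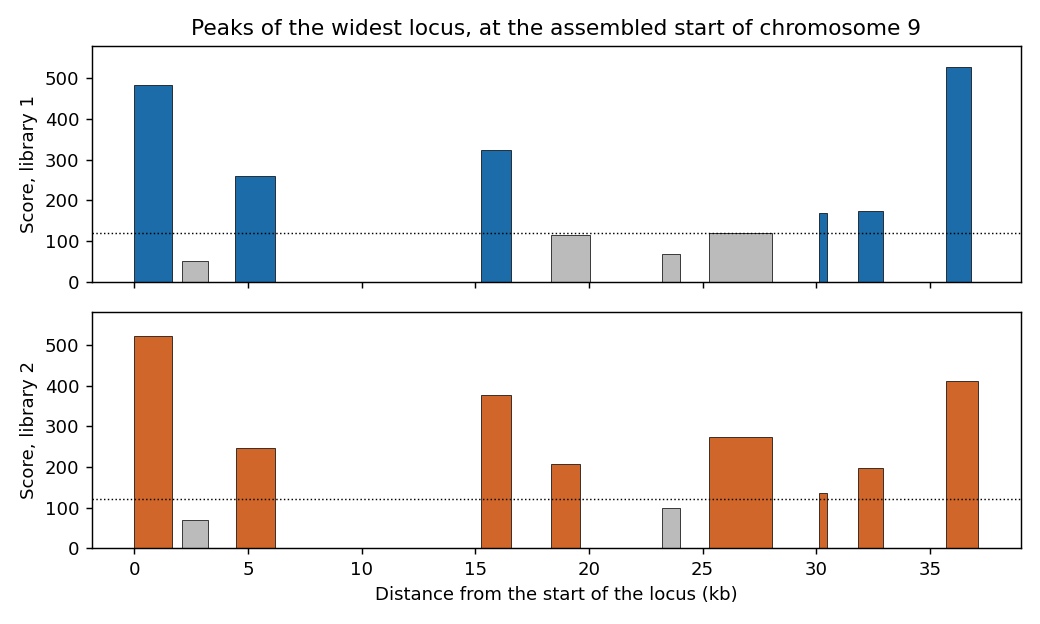
Bars show the called peaks of the chromosome 9 locus, with width to scale in kb from its start on the x axis and score on the y axis, library 1 above and library 2 below; coloured bars reach the score limit (dotted line) and grey bars do not. The same 10 positions were called in both libraries, with 6 over the limit in library 1 and 8 in library 2.

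A second group of neighbouring peaks lay on chromosome 11 from 3035480 to 3050903. Library 1 called 5 peaks there, of which 1 reached the limit, and library 2 called 4, of which 3 did. The leading peak scored 420 in library 1 and 398 in library 2, with borders 3 and 9 bp apart. The remaining peaks of library 1 scored 75.0 to 101, while those of library 2 scored 112 to 177. Agreement was thus close for the leading peak and poorer for its neighbours: border distances over the 4 pairs ran from 6 to 426.5 bp.

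Among the weaker loci found in both libraries, chromosome 17 from 39979901 to 39985869 held the widest chosen peak. Library 1 called a single peak of 5969 bp with a score of 342, whereas library 2 called a peak of 3828 bp scoring 126 and a separate peak of 1129 bp scoring 119. No peak outside the chosen set exceeded 2740 bp in library 1 or 1814 bp in library 2. At the opposite extreme, chromosome 14 from 37246956 to 37247121 was 166 bp in library 1 and 165 bp in library 2, and scored 170.09 and 169.68. In the 2 loci whose chosen peaks did not overlap, separate peaks had been joined by the 10 kb rule. On chromosome 12, the peaks lay at 109107907 to 109108099 in library 2 (133) and at 109117431 to 109117612 in library 1 (126), and neither overlapped a peak of the other library. On chromosome 4, the library 2 peak at 123527850 to 123528039 (140) overlapped a weak library 1 peak (58.4), while the library 1 peak at 123519196 to 123519451 (153) had no counterpart.

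Recurrence was measured by choosing peaks in a single library and looking them up in the other, whose values that choice did not use. Of the 128 peaks chosen in library 1, 67 (52.3%, Wilson 95% interval 43.7 to 60.8%) overlapped a library 2 peak of any score, beside 35.3% of all autosomal peaks and 35.1% (34.2 to 36.0%) of the other peaks. Of the 171 chosen in library 2, 91 (53.2%, 45.7 to 60.5%) overlapped a library 1 peak, beside 31.8% of all and 31.5% (30.7 to 32.4%) of the others. When the other peaks were weighted to the widths of the chosen ones, their shares were 31.3% in library 1 and 27.7% in library 2. A chosen peak also met a chosen peak in the other library in 36 of 128 cases (28.1%, 21.1 to 36.5%) and 36 of 171 cases (21.1%, 15.6 to 27.8%). Over all autosomal peaks that share was 0.841% in library 1 and 0.561% in library 2. Peaks are not replicates, so the intervals are given in place of a test. Both shares depended on which peaks were taken. With a score limit of 100 they were 41.5% and 39.6%, and with 150 they were 81.4% and 86.7%. Against only those peaks of the other library that were under its median width, 14.1% (9.08 to 21.1%) and 23.4% (17.7 to 30.3%) of chosen peaks recurred, beside 10.4% (9.79 to 10.9%) and 9.67% (9.16 to 10.2%) of the others. With members in ties of 3 or more equal scores left out of both lists, so that they could not be met either (a choice made once the values were known), the shares were 68.7% and 81.0%.

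Recurrence was not spread evenly over the chosen peaks but rose with score. In library 1, 18 of 55 peaks scoring 120 to 130 recurred (32.7%, 21.8 to 45.9%), a share inside the range of the bands under the limit (32.7 to 38.0%). The share was 46.7% (30.2 to 63.9%) from 130 to 150 and 68.4% (46.0 to 84.6%) from 150 to 200. Of the peaks scoring 200 or more, 22 of 24 recurred in library 1 (91.7%, 74.2 to 97.7%) and 23 of 23 in library 2 (100%, 85.7 to 100%). Library 2 passed through 37.9% (27.1 to 49.9%), 45.0% (33.1 to 57.5%) and 72.7% (51.8 to 86.8%) in the same bands. Below the limit the share over all peaks of a band showed no such rise, lying between 28.4 and 35.1% in library 2. These shares were not weighted for width, which differed between the bands. Peaks of 250 bp or less made up 21.3% of library 1 peaks scoring 50 to 60 and 56.3% of those scoring 100 to 120. In library 2 they made up 24.7% and 60.5%. The bands also mix peaks with and without ties of 3 or more equal scores. Among other peaks without such ties, 64.8% (library 1) and 66.7% (library 2) of those from 110 to the limit recurred. Over all other peaks without such ties the shares were 50.5% and 48.2%.

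**Figure D3:**
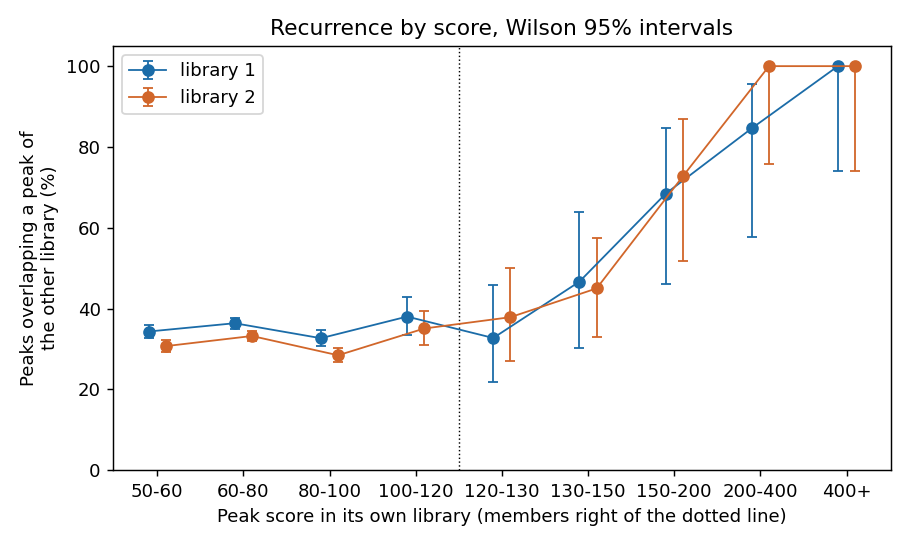
Points give the share of peaks that overlapped a peak of the other library (y axis, %) by score band in their own library (x axis), with Wilson 95% intervals; the chosen peaks lie right of the dotted line. The bands from 50 to 120 stay between 28.4 and 38.0% in both libraries, and the bands from 400 upward reach 100% with 11 peaks in each library.

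Width divided the chosen peaks further. The division at 250 bp was chosen after the values were seen. Of the wide chosen peaks, over 250 bp, 53 of 63 in library 1 (84.1%, 73.2 to 91.1%) and 60 of 71 in library 2 (84.5%, 74.3 to 91.1%) recurred, while other peaks over 250 bp recurred at 44.5% (43.3 to 45.7%) and 41.9% (40.7 to 43.0%). Of the chosen peaks of 250 bp or less, 14 of 65 (21.5%, 13.3 to 33.0%) recurred in library 1, an interval that includes the 18.2% (17.0 to 19.4%) of other narrow peaks. In library 2, 31 of 100 did (31%, 22.8 to 40.6%), above the 16.6% (15.5 to 17.6%) of other narrow peaks. Among peaks under 150, the wide ones recurred at 80% (62.7 to 90.5%) and 73.2% (58.1 to 84.3%) and the narrow ones at 14.5% (7.56 to 26.2%) and 25.9% (17.8 to 36.1%). Among peaks of 150 or more, 6 of 10 narrow peaks in library 1 and 9 of 15 in library 2 recurred, and 29 of 33 and 30 of 30 wide ones. Narrow peaks close to the limit thus recurred least.

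**Figure D4:**
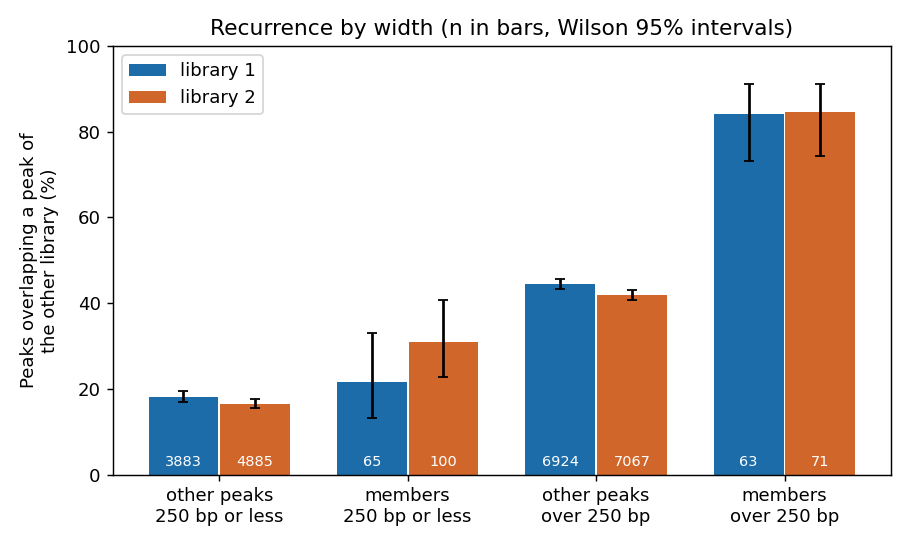
Bars give the share of peaks that overlapped a peak of the other library (y axis, %) for other and chosen peaks (labelled members) of 250 bp or less and over 250 bp, with Wilson 95% intervals and the number of peaks in each bar. Chosen peaks over 250 bp stand at 84.1 and 84.5%, above 44.5 and 41.9% for other wide peaks.

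Widths are part of the same call as the score, so they are given only as a description. The median width of chosen peaks was 243.5 bp in library 1 (range 161 to 5969) and 219 bp in library 2 (157 to 3828), against 323 and 296 bp for other peaks. Chosen peaks of 250 bp or less made up 50.8% and 58.5%, and other peaks of that width 35.9% and 40.9%. This order depended on the peaks near the limit. Pooled over the libraries, the median width of chosen peaks was 228 bp as reported. With a limit of 150 it was 367 bp, above both medians of the other peaks. Without members in ties of 3 or more equal scores it was 404 bp, also above them, but those other peaks kept their ties. With tied peaks left out on both sides, chosen peaks stayed narrower. Their medians were 351 and 463.5 bp in libraries 1 and 2, against 511 and 502 bp for other peaks. Recurring chosen peaks had median widths of 376 and 362 bp, and those without an overlap 200 and 189.5 bp. Other peaks showed the same order, with 426 and 412 bp for recurring and 269 and 251 bp for non-recurring ones. Of the 138 loci with a chosen peak and no overlap, 118 (85.5%, 78.7 to 90.4%) were single peaks of 250 bp or less. Counted as peaks, 83.6% (library 1) and 86.25% (library 2) of chosen peaks without an overlap had that width. Among other peaks without an overlap, 45.3% and 49.8% did.

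Borders agreed most closely where both libraries had a high score. Over the 36 pairs chosen in both libraries, the distance between borders (the mean of the start and end distances) had a median of 6.25 bp, with quartiles of 1.5 and 27.75 bp. It was 47.5 bp (20.75 to 101) in the 88 pairs chosen in a single library, and 90.5 bp (43.0 to 161.5) in the 3746 pairs of other peaks. Other pairs weighted to the widths of the pairs chosen in both libraries had a median of 95.5 bp. Within 10 bp lay 24 of 36 pairs chosen in both (66.7%, 50.3 to 79.8%), 10 of 88 chosen in a single library (11.4%, 6.29 to 19.7%) and 99 of 3746 other pairs (2.64%, 2.18 to 3.21%). Since the pairs chosen in both libraries used both scores, these values are descriptions of the groups. Close borders also occurred in some pairs chosen in a single library. On chromosome 4 the peak at 24120743 to 24120909 scored 148 in library 2 and 119 in library 1, with borders 9 and 1 bp apart. Unequal scores could also go with close borders. On chromosome 5 the peak from 147072462 to 147073008 scored 378 in library 1 and 160 in library 2, with borders 2 and 9 bp apart. Poor agreement was found even among the strongest, as on chromosome 11 from 3092901 (a distance of 196 bp) and chromosome 4 from 70038751 (149.5 bp).

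**Figure D5:**
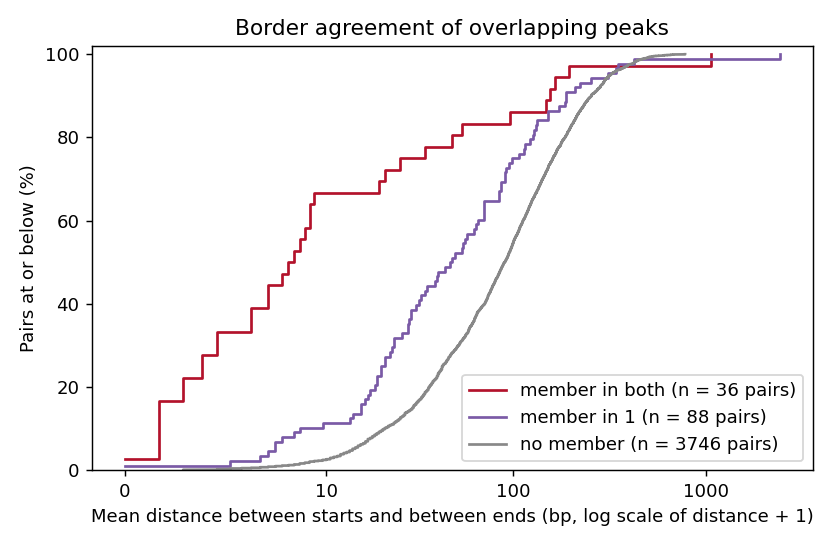
Lines give the cumulative share of overlapping pairs (y axis, %) by the mean distance between their borders (x axis, bp, log scale of distance + 1). Of the pairs chosen in both libraries, 66.7% lie within 10 bp, against 11.4% of pairs chosen in a single library and 2.64% of other pairs.

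Scores of the pairs chosen in both libraries had a median ratio of library 2 to library 1 of 1.03. Of these, 31 of 36 (86.1%) lay within 1.5 times of each other. The other pairs were alike in both measures, with a median ratio of 1.02 and 3209 of 3746 (85.7%) within 1.5 times. Among the 36 pairs, library 2 was higher in 23 and library 1 in 13. Across these 36 pairs the Spearman correlation of scores was 0.78 and that of widths 0.95, and across the 3746 other pairs 0.057 and 0.46. The points share their libraries, several pairs share a locus, and the rule limits each group's range of scores, so the values only describe the ranking. Pairs chosen in library 1 alone had median scores of 130 in library 1 and 84.1 in library 2 (32 pairs). Pairs chosen in library 2 alone had median scores of 81.8 in library 1 and 132 in library 2 (56 pairs). Their inequality follows from the rule, which placed the chosen peak over the limit and its partner under it.

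The most unequal loci with a peak in both libraries, beside the one on chromosome 11, were on chromosomes 2 and 17 in favour of library 1. The chromosome 2 locus from 22600261 to 22600552 scored 278 and 92.8, and the chromosome 17 locus with the 5969 bp peak scored 342 and 126. In favour of library 2, the top ratio was 2.59 at chromosome 7 from 142199441 to 142199603, where a peak of 208 bp scored 82.5 in library 1 and a peak of 163 bp scored 214 in library 2. Chromosome 6 from 116578578 to 116579094 followed with 51.5 and 121, and chromosome 9 from 52557909 to 52558079 with 64.7 and 148. Extreme ratios thus occurred at wide and narrow peaks.

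Of the loci without any overlap, the strongest was a library 1 peak on chromosome 9 from 78023124 to 78023346 with a score of 270, and the nearest library 2 peak lay 6294 bp away. A library 1 peak on chromosome 13 from 97960391 to 97960695 scored 208, and one on chromosome 6 from 3151354 to 3151652 scored 184. The strongest library 2 peak of this kind was on chromosome 7 from 7016356 to 7016522, with a score of 170 and the nearest library 1 peak 213747 bp away. Next in library 1 were chromosome 11 from 97404808 (168), chromosome 1 from 94879396 (164) and chromosome 9 from 123370954 (162). In library 2 they were chromosome 5 from 142561622 (162) and chromosome 16 from 35651599 (156). Chromosome 6 from 43259518 (155, library 1) closed the first 10. Near misses were rare: the nearest peak of the other library lay within 1 kb for 2 of 61 such peaks in library 1 (3.28%, 0.904 to 11.2%) and 2 of 80 in library 2 (2.5%, 0.688 to 8.66%). The shares for other peaks without an overlap were 6.44% (5.89 to 7.04%) and 5.63% (5.15 to 6.15%).

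At the limit itself, the lowest chosen peaks of library 1 scored 120.29 (chromosome 18 from 46625137), 120.42 (chromosome 1 from 87491596) and 120.42 (chromosome 11 from 85727864). The highest peaks left out scored 119.46 (chromosome 14 from 62950767), 119.45 (the chromosome 9 peak of 2740 bp) and 118.69 (chromosome 12 from 113345013). The score of 120.42 was shared by 8 chosen peaks, of which only these are named. In library 2 the lowest chosen score was 120.09, shared by 13 peaks on 10 chromosomes, among them chromosome 1 from 107741159, chromosome 11 from 96680226 and chromosome 15 from 78621426. The highest left out were 119.83 (chromosome 2 from 118502837), 119.75 (chromosome 7 from 134622276) and 119.4 (chromosome 15 from 76502053). No gap in scores separated members from the rest.

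Position along the chromosome was not used by the rule. In library 1, 13 of 128 chosen peaks (10.2%, 6.03 to 16.6%) began within the first 1 Mb of assembled sequence, beside 1.12% of all autosomal peaks and 1.01% (0.837 to 1.22%) of the others. In library 2 the counts were 16 of 171 (9.36%, 5.84 to 14.7%), beside 1.09% of all and 0.971% (0.81 to 1.16%) of the others. Counted as loci, which removes the weight of the chromosome 9 locus, 9 of 250 lay there (3.6%, 1.91 to 6.70%). The share was 7.38% for loci formed from library 1 alone and 4.38% for loci formed from library 2 alone. With a joining gap of 1 kb, which splits the chromosome 9 locus, the share was 6.87%, and with 100 kb it was 2.88%. It was 1.41% with a score limit of 100 and 13.5% with a limit of 150. The shares of other peaks count single peaks, so they are not a like measure for loci. Of the loci with a chosen peak in each library, 6 of 31 lay within 1 Mb (19.4%, 9.19 to 36.3%), all of them in the first 0.2 Mb, on chromosomes 5, 9, 11 and 12. Of the loci with a chosen peak in a single library, 3 of 219 did (1.37%, 0.467 to 3.95%), on chromosomes 2, 6 and 9. The region was therefore represented mainly by recurring loci, which share 4 chromosome ends and are not independent.

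Chosen loci were found on each of the 19 autosomes. Chromosome 6 held 25, chromosomes 2 and 9 held 24 each, and chromosome 18 held 3. Relative to all its peaks, chromosome 9 had the most chosen peaks (2.92 per 100) and chromosome 8 the fewest (0.40 per 100). The place of chromosome 9 rested on its widest locus, which held 14 of its 39 chosen peaks: with that locus left out, a choice made once the values were known, it was 1.90 per 100, under the 1.96 of chromosome 6. Loci with a chosen peak in each library numbered 31 of 250 (12.4%). They were most numerous on chromosomes 11 and 12, with 4 of 21 and 4 of 10 loci. On chromosome 11, 3 of the 4 lay in the first 0.2 Mb of assembled sequence and were separate only under the 10 kb joining gap. None was found on chromosomes 1, 8, 10 and 18, which held only 17, 5, 9 and 3 loci. Chosen peaks had a neighbour of their own library within 10 kb about as often as other peaks did: 22.7% (16.3 to 30.6%) against 22.1% (21.3 to 22.9%) in library 1, and 23.4% (17.7 to 30.3%) against 24.7% (23.9 to 25.5%) in library 2.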

How the data were processed

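H3S10p ChIP-seq was represented by 1 peak list per library. Peaks were called per library with MACS, per the file headers, and the authors deposited each peak's score without naming its scale. The lowest score was 50.01 in both lists. Bowtie and the build mm9 are named in the submitters' processing notes. Not given in the sources used here were the MACS version, its threshold, any control and how reads with several positions were treated. Read depth is unknown, so precision is given only as counting intervals. Positions are counted from 1. The members and measures were chosen with earlier results of these data known. A peak was shared when it overlapped the other library by at least 1 bp. Weighting by width used 6 classes divided at 200, 250, 300, 400 and 600 bp. Loci named by rule were the 12 highest by mean score and those with 3 or more members in a library. The rule also named 3 extreme ratios in each direction, 10 loci without overlap and 3 peaks on each side of the limit. Further loci, given as examples of position, width, border agreement or joining, were picked outside this rule. Alternatives covered score limit, joining gap, overlap rule, list and position filters. Overlap and border distance were tested on simulated lists of 10935 and 12123 peaks, where 3000 of 3000 planted pairs were recovered. Joining was tested on a separate simulated list, where 200 of 200 planted loci were recovered. The other calculations were not tested in this way. Python 3.11.15, NumPy 2.4.6, pandas 2.3.3, SciPy 1.17.1 and matplotlib 3.10.9 were used.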

Additional observations from a re-analysis of the deposited data

How the results depend on the processing

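No paired analysis was possible because the 2 ChIP libraries form a single group and no result comes from a test between groups. The score limit moved most values. With a limit of 100 there were 1133 loci (250 as reported), 5.03% with a chosen peak in each library (12.4%), recurring shares of 41.5% and 39.6% in libraries 1 and 2 (52.3% and 53.2%), a median border distance of 59.5 bp (31.5 bp) and 1.41% of loci in the first 1 Mb (3.6%). With a limit of 150 these were 52 loci, 40.4%, 81.4% and 86.7%, 8.5 bp and 13.5%, and the median width was 367 bp (228 bp). Loci formed from a single library numbered 122 to 160, with border distances of 22.75 to 27 bp, widths of 219 to 243.5 bp and 4.38 to 7.38% in the first 1 Mb; both border values lie under the reported one because pairs chosen in both libraries enter each. The share of loci in each library and the recurrence of the absent library's peaks have no value there. A joining gap of 1 kb, which splits the chromosome 9 locus, gave 6.87% in the first 1 Mb, and the first 5 Mb held 8.4%. Against only those peaks of the other list under its median width, recurring shares were 14.1% and 23.4%. Without members in ties of 3 or more equal scores in either list, added after seeing the data, there were 124 loci, 20.2% in both, recurring shares of 68.7% and 81.0% and a median width of 404 bp. The width of 367 bp lies above those of other peaks (323 and 296 bp), the opposite order to the reported one. The width of 404 bp does too, but those other peaks kept their ties. With tied peaks left out on both sides the reported order held: 351 and 463.5 bp for chosen peaks, against 511 and 502 bp for other peaks. The cause of these shifts was not tested beyond the change in peaks taken. Other overlap rules, the upper 50% by score, leaving out the first 1 Mb or the widest locus, and counting the top peak per locus moved the recurring shares by less than their intervals.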

Other observations

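Many of the chosen peaks carried exactly the same score as others of their library, a pattern looked at after the values were seen. In library 1, 14 peaks on 10 chromosomes scored 125.64, and all were 169 to 182 bp wide. In library 2, 17 peaks on 12 chromosomes scored 125.33, with widths of 169 to 183 bp. Of these, 1 of 14 and 2 of 17 overlapped a peak of the other library. Scores shared by 3 or more peaks accounted for 45 of 128 chosen peaks in library 1 and 87 of 171 in library 2. Those peaks were 161 to 278 and 157 to 267 bp wide, and 17.8% and 24.1% recurred. The chosen peaks with rarer scores had median widths of 351 and 463.5 bp, and 71.1% and 83.3% of them recurred when the whole other list could be met (68.7% and 81.0% with tied members removed from that list too). Ties were also common among other peaks, where 74.7% in library 1 and 76.2% in library 2 shared their score with at least 2 more peaks. There 29.8% and 26.3% of tied peaks recurred, against 50.5% and 48.2% of the rest. Among other peaks from 110 to the limit, 64.8% and 66.7% of the untied ones recurred. Untied chosen peaks under 150 were near this, at 60% and 73.9%. All untied other peaks together had median widths of 511 and 502 bp, wider than the chosen peaks with rarer scores. At 150 or more, 0 of 43 chosen peaks in library 1 and 7 of 45 in library 2 were tied in this way. Why unrelated positions carry equal scores was not tested.

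Outside the chosen set, which was limited to autosomes, scores of 120 or more occurred only on chromosome X. The peak from 139917440 to 139917753 scored 645 in library 1, and its library 2 counterpart began 1 bp later and scored 710. A further library 2 peak from 166434704 to 166436266 was 1563 bp wide and scored 163.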
